A study of Mus musculus with 8 samples.

Results

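Metallothioneins are small cysteine-rich proteins that bind zinc, copper and cadmium in the cytosol, and *Mt1* and *Mt2* are the forms made in most mouse tissues. *Mtf1* encodes the metal-responsive transcription factor that binds metal response elements in their promoters, *Slc30a1* encodes the zinc exporter of the plasma membrane, and *Slc39a10* and *Slc39a14* encode zinc importers of the ZIP family. *Slc39a14* also carries iron and manganese. These 6 genes were chosen by symbol as the core of zinc handling, with earlier results of these data known, as were the gene lists below. Their shares called are therefore set beside those of all genes as a description, not as a test. All 6 were found among the 18605 genes in the table and passed the filter on low counts. Metallothionein transcription is known to rise with zinc, with glucocorticoids and with inflammatory cytokines, and both metallothionein genes and *Slc39a14* are classic acute-phase genes.

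RNA-seq was done on C3H10T1/2, a clonal mesenchymal cell line from C3H mouse embryos, in 4 groups of 2 libraries. NC cells carried a non-target control and KD-Nap1l2 cells an shRNA against *Nap1l2*, both without induction, and NC-7day and KD-Nap1l2-7day were the same cells after 7 days of osteogenic induction. By the study's methods, the osteogenic medium held dexamethasone, a synthetic glucocorticoid, so induction and glucocorticoid exposure cannot be told apart. No group was kept for 7 days without induction, so time in culture cannot be told apart from induction either. All 4 groups are the same line, and nothing in the labels says that the 2 replicates came from separate cultures, so the p-values measure only the spread between these libraries.

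The libraries held 17420284 to 19427359 estimated counts. The paper reports the knockdown in this cell line by western blot and qPCR. In these libraries the targeted gene, *Nap1l2*, was too low to show or exclude it, and its counts did not follow the labels. It had 3 and 3 counts in NC, 2 and 7 in KD-Nap1l2, 15 and 5 in NC-7day, and 7 and 13 in KD-Nap1l2-7day. KD-Nap1l2 did not pass the test against NC (edgeR, log2 fold change 0.64, 95% interval -1.61 to 2.90, adjusted p = 0.812). The cells are therefore named here only as the libraries labelled KD-Nap1l2. Mesenchymal markers summed to 2708 to 6845 FPKM (a level corrected for gene length and library size), against 0.06 to 0.68 for endothelial and 2.77 to 9.13 for macrophage markers. Most of the mesenchymal sum was *Vim*, *Col1a2* and *Col1a1*. On the same list *Thy1* was at 0.59 to 5.79 FPKM, and *Nt5e*, at 0 to 0.05 FPKM, was too low to be tested. Osteoblast markers summed to 2.67 to 13.29 FPKM before induction and 2.87 to 5.38 FPKM at 7 days. Of the 2 tested, 1 was called, *Dmp1*, which was lower on average over both kinds of cells (edgeR, log2 fold change -1.64, adjusted p = 0.034). *Sp7*, *Alpl* and *Ibsp* were too low to be tested. The adipocyte list rose from 8.45 to 25.09 FPKM before induction to 138.4 to 181.5 FPKM at 7 days, almost all of it *Fabp4*. The mesenchymal list was at 4614 to 6845 FPKM before induction and 2708 to 4016 FPKM at 7 days, with 4 of 7 tested markers called lower on average over both kinds of cells (*Vim*, *Col1a1*, *Col1a2* and *Thy1*) and 1 higher. The part of these shifts in the results was not tested.

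*Mt2* and *Mt1* are neighbours on chromosome 8 (GRCm38.p6, plus strand), at chr8:94172618-94173567 and chr8:94178883-94180327, with 5315 bases between them. *Mtf1* is at chr4:124802549-124849800 and *Slc30a1* at chr1:191906697-191913248 on the plus strand, and *Slc39a10* is at chr1:46807544-46925776 and *Slc39a14* at chr14:70303467-70351452 on the minus strand. The promoters are shown for the 3 genes whose RefSeq windows hold a metal response element core, the short motif bound by MTF-1, searched on both strands as TGCACNC or TGCGCNC. The runs below are the 250 bases before the RefSeq start in each window (chr8:94178839-94179088, chr8:94172368-94172617 and chr1:191906531-191906780, all plus strand), 5′ to 3′, with the cores in capitals.
Mt1: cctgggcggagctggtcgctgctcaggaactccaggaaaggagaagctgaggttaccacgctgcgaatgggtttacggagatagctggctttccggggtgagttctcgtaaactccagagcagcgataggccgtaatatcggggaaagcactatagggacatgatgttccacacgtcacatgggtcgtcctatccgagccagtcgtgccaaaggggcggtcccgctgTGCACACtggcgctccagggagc
Mt2: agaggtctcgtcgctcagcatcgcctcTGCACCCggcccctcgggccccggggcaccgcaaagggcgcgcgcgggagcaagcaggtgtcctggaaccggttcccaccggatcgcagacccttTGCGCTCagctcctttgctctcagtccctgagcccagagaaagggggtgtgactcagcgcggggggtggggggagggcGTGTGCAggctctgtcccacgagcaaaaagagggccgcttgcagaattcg
Slc30a1: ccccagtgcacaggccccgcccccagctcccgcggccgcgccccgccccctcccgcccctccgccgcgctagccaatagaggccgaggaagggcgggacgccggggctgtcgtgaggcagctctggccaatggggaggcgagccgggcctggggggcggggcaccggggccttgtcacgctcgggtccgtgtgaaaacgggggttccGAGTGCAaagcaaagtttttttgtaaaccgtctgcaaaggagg

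The *Mt2* run held 3 cores, at -223, -128 and -50 from the start, and the last of them lies on the opposite strand. The *Mt1* run held 1 core at -23 and the *Slc30a1* run 1 core at -43. Extending the search by the 50 bases after the start brought the cores to 4 in *Mt2*, 3 in *Mt1* and 2 in *Slc30a1*. Of all 32851 RefSeq windows, 25.7% held at least 1 core over 300 bases, 7.11% at least 2, 1.97% at least 3 and 0.517% at least 4. No core was found in the window of *Mtf1* or in either window of *Slc39a10*. Start sites are annotated in several places for the metallothionein genes. GENCODE vM21 places other starts of *Mt1* 122 and 152 bases further downstream and of *Mt2* 46 and 242 bases further downstream. Both the distances and the number of cores therefore depend on the start chosen. The search ended 50 bases after the RefSeq start, so the bases from there to the starts at 122, 152 and 242 were not searched. The gene spans given above for *Mt1* and *Slc30a1* begin inside their runs, so most of the *Mt1* run and part of the *Slc30a1* run lie within the gene. A match is a description of the sequence, not evidence of binding.

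**Figure D1:**
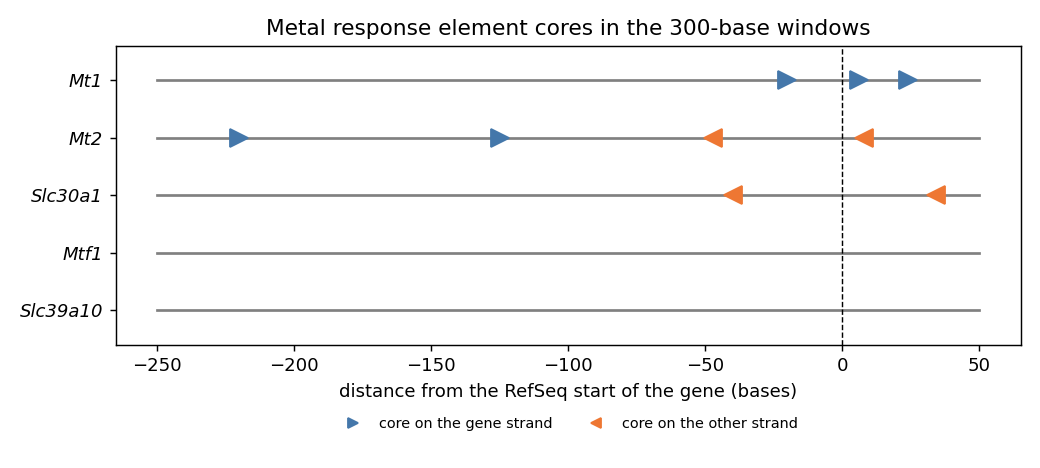
Positions of metal response element cores relative to the RefSeq start (x axis, bases; the dashed line is the start), in the 300-base window of each gene, with the 2 windows of Slc39a10 drawn as 1 line. Mt2 holds 4 cores, Mt1 3 and Slc30a1 2, and none was found for Mtf1 or Slc39a10.

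The level of each gene was then read in every library. In bulk RNA, a change in the number of cells that express a gene and a change in the RNA per cell cannot be told apart. *Mt1* was abundant before induction, at 375.05 and 485.45 FPKM in NC, and reached 1469.4 and 1290.01 FPKM in NC-7day. The libraries labelled KD-Nap1l2 held 234.23 and 1008.01 FPKM of *Mt1*, and KD-Nap1l2-7day held 1230.52 and 1794.42 FPKM. All 4 libraries at 7 days were above all 4 before induction, and the replicates labelled KD-Nap1l2 lay on either side of both NC libraries. *Mt2* had the lower level of the pair before induction, at 180.75 and 224.74 FPKM in NC and 136.76 and 750.67 FPKM in KD-Nap1l2. At 7 days *Mt2* stood at 1374.13 and 1011.04 FPKM in NC-7day and at 1398.14 and 2008.11 FPKM in KD-Nap1l2-7day, again above every uninduced library.

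The transcription factor and the transporters were far less abundant than the metallothioneins. *Mtf1* was at 2.03 and 2.67 FPKM in NC and 2.88 and 2.40 FPKM in KD-Nap1l2, and at 3.82 and 3.73 FPKM in NC-7day and 3.95 and 3.59 FPKM in KD-Nap1l2-7day. The 7-day libraries lay above the uninduced ones without overlap, and within each time the labels overlapped. *Slc39a14* was at 9.80 and 13.29 FPKM in NC, 14.93 and 18.31 FPKM in KD-Nap1l2, 45.59 and 50.07 FPKM in NC-7day and 47.74 and 41.72 FPKM in KD-Nap1l2-7day. Its levels separated completely by time, and before induction the libraries labelled KD-Nap1l2 were above both NC libraries. *Slc39a10* moved the other way, from 6.97 and 6.19 FPKM in NC and 6.68 and 8.29 FPKM in KD-Nap1l2 to 4.08 and 3.75 FPKM in NC-7day and 3.73 and 3.16 FPKM in KD-Nap1l2-7day. *Slc30a1*, the exporter, was at 3.30 and 2.74 FPKM in NC, 2.53 and 1.34 FPKM in KD-Nap1l2, 1.35 and 2.06 FPKM in NC-7day and 2.42 and 1.71 FPKM in KD-Nap1l2-7day. Only in NC were its libraries higher than all the others, and the other 3 groups overlapped one another.

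**Figure D2:**
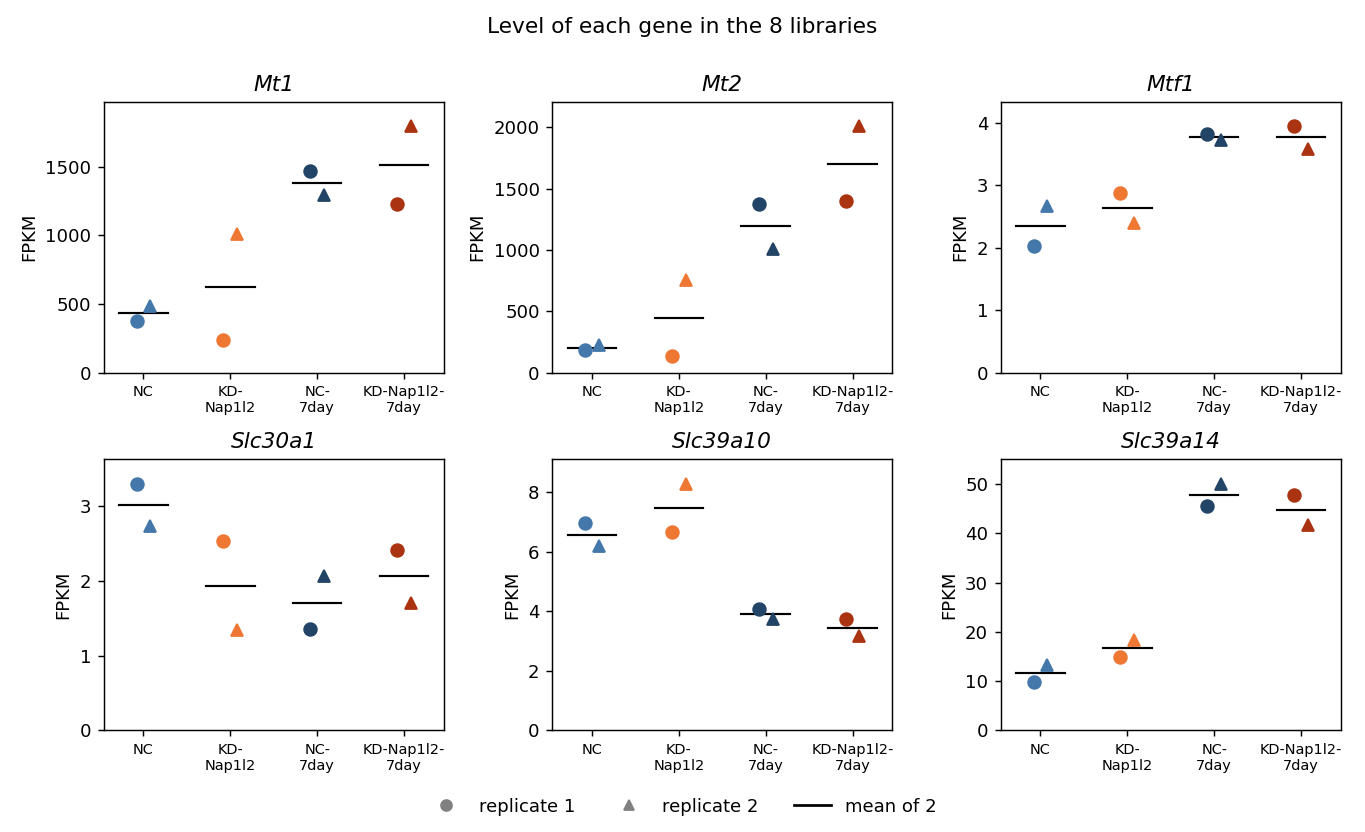
FPKM (y axis, linear from 0) of the 6 genes in the 8 libraries, by group; circles are replicate 1, triangles replicate 2 and the black lines the mean of 2. Mt1, Mt2, Mtf1 and Slc39a14 are higher and Slc39a10 lower in all 4 libraries at 7 days than in all 4 before induction, and the replicates labelled KD-Nap1l2 lie far apart for Mt1 and Mt2.

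Ordered by group mean, *Slc39a14* ran from 11.5 ± 2.47 FPKM (SD, n = 2) in NC through 16.6 ± 2.39 in KD-Nap1l2 to 44.7 ± 4.26 in KD-Nap1l2-7day and 47.8 ± 3.17 FPKM in NC-7day, and the last 2 did not differ beyond their spread. For *Slc39a10* the order was 3.45 ± 0.403 FPKM (SD, n = 2) in KD-Nap1l2-7day, 3.92 ± 0.233 in NC-7day, 6.58 ± 0.552 in NC and 7.49 ± 1.14 FPKM in KD-Nap1l2. The uninduced groups overlapped, and the 2 induced groups met at 3.73 and 3.75 FPKM. The *Mt1* mean was 430.2 ± 78.1 FPKM (SD, n = 2) in NC, 621.1 ± 547 in KD-Nap1l2, 1380 ± 127 in NC-7day and 1512 ± 399 FPKM in KD-Nap1l2-7day, and only at the step from the uninduced to the induced groups did neighbours in this order not overlap.

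Among the 6 genes, the metallothioneins were where the replicates labelled KD-Nap1l2 disagreed most. *Mt1* differed 4.71-fold and *Mt2* 6-fold between these 2 libraries in normalized counts, and only 0.443% and 0.319% of 11280 genes differed by at least as much there. In the other 3 groups the replicates differed 1.19- to 1.48-fold for these 2 genes. Over all genes, 4.69% differed more than 2-fold between the replicates labelled KD-Nap1l2, 1.35% in NC, 4.73% in NC-7day and 0.523% in KD-Nap1l2-7day. Replicate 2 was the high one, and the mean log2 difference of the 14 glucocorticoid-induced genes from NC was -0.363 in replicate 1 and 0.204 in replicate 2, against 1.95 to 2.18 in the induced libraries. *Ndrg1*, a gene on the list of *Mtf1*-dependent genes that is also induced by hypoxia, was at 191.57 FPKM in replicate 1 and 730.97 FPKM in replicate 2. Over that list with the 6 genes left out (4 genes), the mean log2 difference from NC was -0.0755 in replicate 1 and 0.582 in replicate 2. Its other genes went either way. *Selenow* was at 136.28 and 263.64 FPKM, *Gclc* at 13.94 and 9.21 FPKM and *Slc30a1* at 2.53 and 1.34 FPKM. Of the other lists counted below, the Nrf2 target genes were at 0.475 and 0.232 from NC and the IL-6 and STAT3 target genes at -0.0291 and 0.179. What set the replicates apart was not tested.

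To ask how induction changed these genes in control cells, NC-7day was compared with NC (edgeR quasi-likelihood test over 13470 genes, called at a Benjamini-Hochberg adjusted p under 0.05). *Slc39a14* rose 4.16-fold and *Mtf1* 1.6-fold, and *Slc39a10* fell by 0.74 on the log2 scale. These were 3 of the 6 genes, where 8.21% of all tested genes were called. On the log2 scale *Slc39a14* changed by 2.06 ± 0.194 (SE; edgeR adjusted p = 0.00192), *Mtf1* by 0.68 ± 0.16 (adjusted p = 0.041) and *Slc39a10* by -0.74 ± 0.183 (adjusted p = 0.0472). The metallothioneins had larger fold changes but did not pass: *Mt2* had a log2 fold change of 2.56 (95% interval 0.954 to 4.16, adjusted p = 0.0636) and *Mt1* of 1.68 (95% interval 0.311 to 3.05, adjusted p = 0.131). *Slc30a1* had a log2 fold change of -0.82 (95% interval -1.54 to -0.0943, adjusted p = 0.159). All 6 genes separated the 2 groups without overlap in library-scaled counts, as did 57.8% of all tested genes. The test shares its spread with all 4 groups, including the discordant KD-Nap1l2 pair. With NC and NC-7day alone, *Mt1* (adjusted p = 0.0162) and *Mt2* (0.0112) passed the edgeR test and *Mtf1* (0.0886) and *Slc39a10* (0.0501) did not. *Mt2* also passed with DESeq2 (adjusted p = 0.0138) and with no filter on low counts (0.0261). Without any 1 of the 4 libraries, *Slc39a14* alone kept its call (adjusted p 0.00478 to 0.0274), and *Mtf1* (0.0502 to 0.264) and *Slc39a10* (0.101 to 0.283) lost theirs.

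In the cells labelled KD-Nap1l2 the same comparison called 2 of the 6 genes, with 14.2% of all tested genes called. *Slc39a14* rose 2.73-fold (log2 fold change 1.45, standard error 0.19, adjusted p = 0.00401) and *Slc39a10* fell by 1.11 on the log2 scale (standard error 0.185, adjusted p = 0.00963). *Mtf1* had a log2 fold change of 0.52 (95% interval 0.155 to 0.894, adjusted p = 0.0656), *Mt2* of 1.90 (0.34 to 3.47, adjusted p = 0.099) and *Mt1* of 1.25 (-0.102 to 2.61, adjusted p = 0.188). *Slc30a1* was near 0, with a log2 fold change of 0.11 (-0.612 to 0.839, adjusted p = 0.838). Every gene but *Slc30a1* separated the groups without overlap, as did 61.4% of tested genes. The metallothionein values turned on the library left out. Without KD-Nap1l2 replicate 2 the edgeR log2 fold changes were 2.77 for *Mt1* and 3.71 for *Mt2*. Leaving out each of the 4 libraries in turn, they ranged from 0.531 to 2.77 for *Mt1* and from 1.12 to 3.71 for *Mt2*. Without KD-Nap1l2 replicate 2 *Slc30a1* had a log2 fold change of -0.22. *Slc39a10* lost its call without KD-Nap1l2-7day replicate 1 (adjusted p = 0.0643) or replicate 2 (adjusted p = 0.0912).

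Averaged over both kinds of cells, 5 of the 6 genes were called, where 25.5% of all tested genes were (12.8% higher and 12.7% lower). *Mt2* rose 4.69-fold, *Slc39a14* 3.37-fold, *Mt1* 2.77-fold and *Mtf1* 1.52-fold, and *Slc39a10* fell by 0.93 on the log2 scale. The adjusted p was 0.000218 for *Slc39a14*, 0.00245 for *Slc39a10*, 0.0081 for *Mtf1*, 0.014 for *Mt2* and 0.037 for *Mt1* (edgeR). These 5 also separated the 4 induced from the 4 uninduced libraries without overlap, as did 26.4% of tested genes. *Slc30a1* had a log2 fold change of -0.35 (95% interval -0.865 to 0.159, adjusted p = 0.277). The *Mt1* call was the one lost most often when a library was left out. It was lost without any 1 of the libraries of NC (adjusted p 0.131 without replicate 1 and 0.0856 without replicate 2), NC-7day (0.0736 and 0.0518) or KD-Nap1l2-7day (0.0735 and 0.115). *Mt2* lost its call without NC replicate 1 (0.0697) or KD-Nap1l2-7day replicate 2 (0.0526). Without KD-Nap1l2 replicate 2 the log2 fold changes were 2.23 for *Mt1* and 3.13 for *Mt2*, against 1.47 and 2.23 with it. Leaving out each of the 8 libraries in turn, they ranged from 1.11 to 2.23 for *Mt1* and from 1.84 to 3.13 for *Mt2*.

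**Figure D3:**
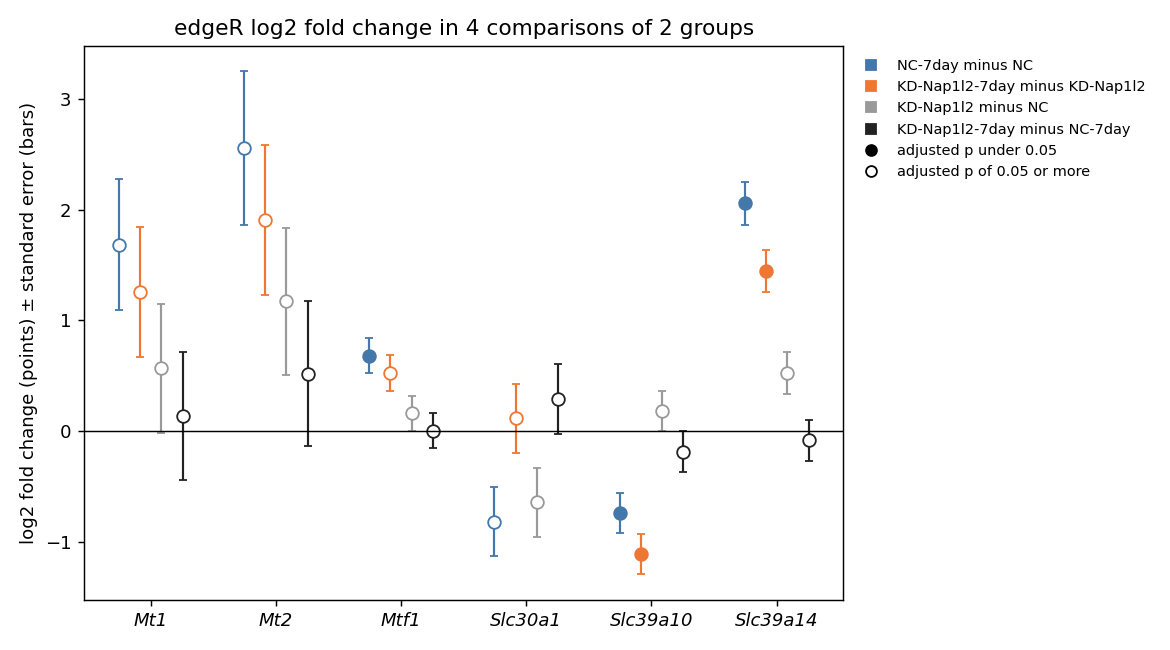
edgeR log2 fold change (points, y axis) ± standard error (bars) of the 6 genes in 4 comparisons of 2 groups; filled points have an adjusted p under 0.05. Slc39a14 and Slc39a10 are called in both induction comparisons and Mtf1 in NC cells, and no gene is called between the labels at either time.

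Whether the labels differed was asked before and after induction. Before induction none of the 6 genes was called between KD-Nap1l2 and NC by edgeR, by DESeq2 or by limma, 1 had an unadjusted p under 0.05, and 0.0817% of all tested genes were called. That gene was *Slc39a14*, with a log2 fold change of 0.52 (95% interval 0.0876 to 0.957, edgeR adjusted p = 0.279). *Slc30a1* had a log2 fold change of -0.65 (-1.37 to 0.0747), *Mt2* of 1.17 (-0.367 to 2.71), *Mt1* of 0.57 (-0.776 to 1.91), *Mtf1* of 0.16 (-0.214 to 0.53) and *Slc39a10* of 0.18 (-0.235 to 0.599). Here too the metallothioneins turned on single libraries. Without KD-Nap1l2 replicate 1, *Mt1* (log2 fold change 1.29, adjusted p = 0.0483) and *Mt2* (1.95, adjusted p = 0.0257) were called higher, and without replicate 2 they were at -0.95 and -0.64 and were not called. The groups did not overlap for *Slc39a14* and *Slc30a1*, as for 43.2% of tested genes.

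After 7 days none of the 6 genes was called between the labels by edgeR, DESeq2 or limma, none had an unadjusted p under 0.05, and 0% of all tested genes were called by edgeR. In library-scaled counts the 2 groups overlapped for all 6, where 42.1% of tested genes did not overlap, while in FPKM both *Mt2* values of KD-Nap1l2-7day lay above those of NC-7day and both *Slc39a10* values below. The intervals still leave room for differences in the metallothioneins, at -1.2 to 1.47 for *Mt1* and -0.998 to 2.03 for *Mt2* on the log2 scale, and are narrower for *Slc39a14* (-0.513 to 0.345), *Mtf1* (-0.363 to 0.369), *Slc39a10* (-0.615 to 0.241) and *Slc30a1* (-0.442 to 1.02).

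The response to induction was also compared directly between the labels, as the difference of the 2 log2 fold changes, KD-Nap1l2 minus NC. None of the 6 genes passed by edgeR, DESeq2 or limma, none had an unadjusted p under 0.05, and 0% of all tested genes were called by edgeR. With DESeq2, 100 genes were called. *Slc39a14* came nearest, at -0.61 (95% interval -1.22 to 0.00414, edgeR adjusted p = 0.703), and *Slc30a1* was at 0.93 (-0.0923 to 1.96, edgeR adjusted p = 0.721). *Mt1* was at -0.43 (-2.32 to 1.46) and *Mt2* at -0.65 (-2.8 to 1.49), and without KD-Nap1l2 replicate 2 these became 1.09 and 1.16.

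The balance between the metallothioneins was also read in each library. *Mt2* divided by *Mt1* in FPKM was 0.482 and 0.463 in NC, 0.584 and 0.745 in KD-Nap1l2, 0.935 and 0.784 in NC-7day, and 1.14 and 1.12 in KD-Nap1l2-7day. The 4 induced libraries all lay above the 4 uninduced ones, with mean FPKM ratios of 0.994 ± 0.167 against 0.568 ± 0.129 (SD, n = 4, both kinds of cells pooled). The test was run on the log2 of the ratio in counts, where the difference was 0.812, or 1.76-fold. The two-sided exact permutation test gave p = 0.0286, the smallest this design can give, and 0.0571 after Benjamini-Hochberg adjustment over 2 tests. The adjusted value did not pass. Both values at 7 days were above both uninduced values within NC and within KD-Nap1l2 cells. Between the labels, both KD-Nap1l2 values were above both NC values at each time, and the test pooled over both times, in which the difference between times counts as spread, gave an exact permutation p of 0.257. This ratio was chosen after the levels had been seen.

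**Figure D4:**
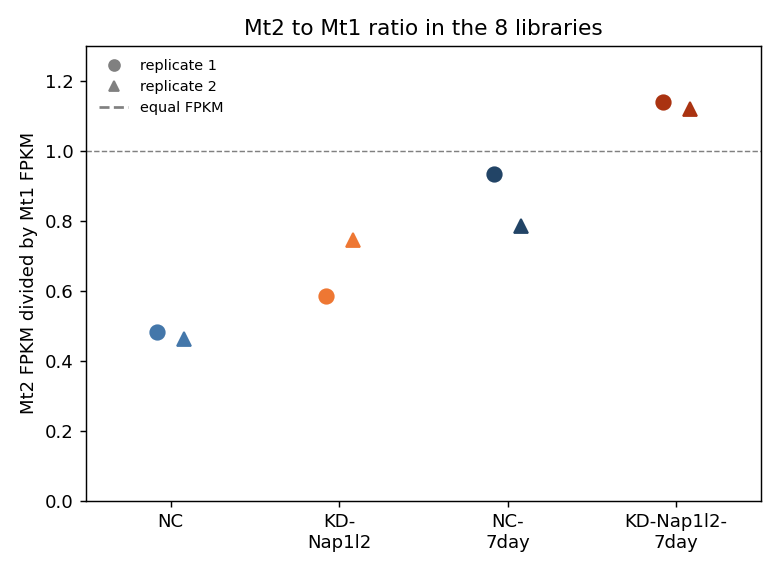
Ratio of Mt2 FPKM to Mt1 FPKM (y axis, from 0) in the 8 libraries by group; circles are replicate 1, triangles replicate 2 and the dashed line marks equal FPKM. The ratio runs from 0.463 in NC to 1.14 in KD-Nap1l2-7day, and all 4 induced libraries are above all 4 uninduced ones.

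Most zinc transporters did not pass the test. Of 16 tested, 4 were called, close to the 25.5% of all tested genes called in this comparison. The 16 include *Slc30a1*, *Slc39a10* and *Slc39a14*, and the calls include the last 2 of these. Without these genes, 1 of 6 tested exporters was called lower and 1 of 7 tested importers higher. Of 10 genes of the exporter family Slc30a, 7 had enough counts to be tested, and averaged over both kinds of cells none rose and 1 fell. That was *Slc30a3*, the vesicle zinc transporter best known from neurons, at 7 to 19 counts in the uninduced and 1 to 3 in the induced libraries (log2 fold change -2.67, standard error 0.503, adjusted p = 0.00813). The most abundant exporter gene, *Slc30a4*, averaged 24.5 FPKM and had a log2 fold change of 0.05 (95% interval -0.221 to 0.312). Of 14 genes of the importer family Slc39a, 9 were tested, 2 rose and 1 fell. Besides *Slc39a14* and *Slc39a10* the third was *Slc39a6*, which encodes the closest relative of the Slc39a10 protein and the partner it pairs with. *Slc39a6* was at 12.50 and 15.69 FPKM in NC, 19.65 and 17.47 in KD-Nap1l2, 20.75 and 24.22 in NC-7day and 23.72 and 22.33 FPKM in KD-Nap1l2-7day, so that it rose where *Slc39a10* fell (log2 fold change 0.49, standard error 0.0961, adjusted p = 0.00933). *Slc39a1*, the most abundant importer gene at 75.8 FPKM, had a log2 fold change of -0.06 (95% interval -0.27 to 0.16). The median log2 fold change was 0.02 over the tested exporters and 0.10 over the tested importers, against -0.01 over all tested genes. Of the metallothionein family, *Mt4*, a form of stratified epithelia, had at most 2 counts in any library and was not tested.

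**Figure D5:**
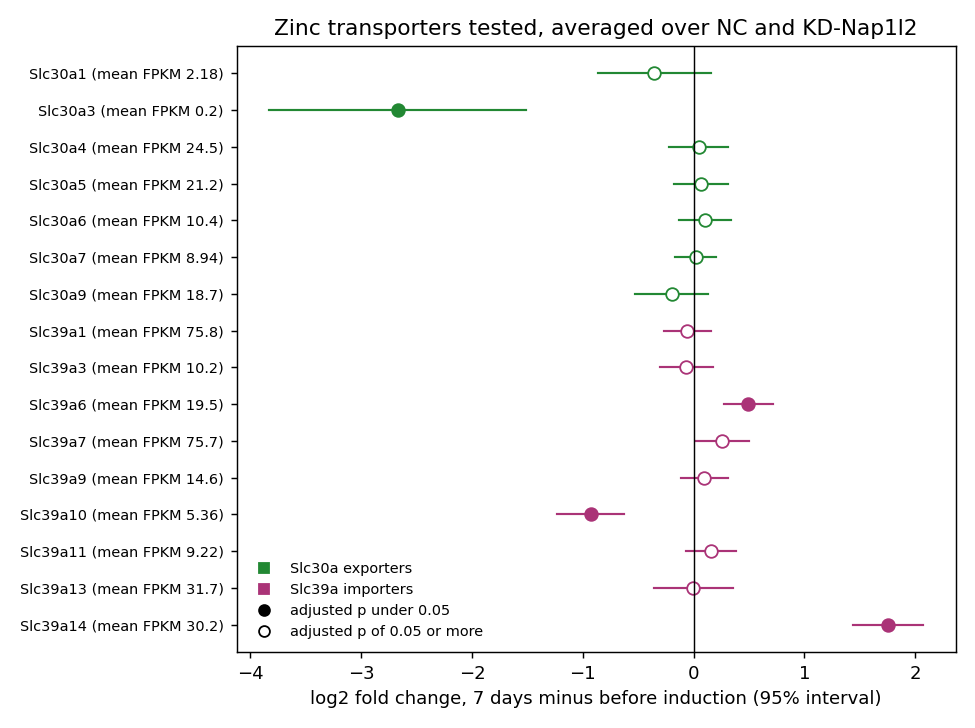
edgeR log2 fold change of induction averaged over NC and KD-Nap1l2 cells (x axis) with its 95% interval (lines) for the 16 zinc transporter genes tested, with the mean FPKM of the 8 libraries beside each name; filled points have an adjusted p under 0.05. Slc39a14 and Slc39a6 are higher and Slc39a10 and Slc30a3 lower at 7 days, and the other 12 are not called.

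The genes known to depend on *Mtf1* did not move one way. Averaged over both kinds of cells, 3 of the 8 on the list were called higher and 3 lower, where 12.8% and 12.7% of all tested genes were, with a median log2 fold change of -0.25. The higher ones were *Gclc* (6.96-fold, adjusted p = 3.59e-05), which encodes the catalytic subunit of the first enzyme of glutathione synthesis, *Mt2* and *Mt1*. The lower ones were *Ndrg1* (log2 fold change -2.38, adjusted p = 0.00974), *Slc39a10*, which MTF-1 is known to repress, and *Selenow* (-0.75, adjusted p = 0.0367), a selenoprotein gene named here after its value was seen. The other 2, among them *Slc30a1*, were not called. With the genes that are among the 6 left out, 1 of 4 was called higher and 2 lower, with a median log2 fold change of -0.45. Because the list mixes activated and repressed genes, it has no single expected direction.

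Genes that handle copper and iron were counted in the same comparison, where 12.8% of all tested genes were called higher and 12.7% lower. Of 9 copper genes tested, 3 rose and none fell, and 5 of the 9 had a positive fold change, with a median log2 fold change of 0.15. The called ones were *Cp* (log2 fold change 1.49, adjusted p = 0.000926), which encodes ceruloplasmin and was the most abundant of them, *Slc31a2* (1.14, adjusted p = 0.00179), a low-affinity copper transporter gene, and *Atp7a* (0.48, adjusted p = 0.0108), which encodes a copper-exporting ATPase. Of 12 iron genes, 4 rose, none fell and 8 were not called, with a median log2 fold change of 0.33. These were the ferritin genes *Fth1* (1.08, adjusted p = 0.000602) and *Ftl1* (0.94, adjusted p = 0.00609), *Hmox1* (0.72, adjusted p = 0.0412), which encodes heme oxygenase 1, and *Slc11a2* (0.68, adjusted p = 0.013), an importer gene for ferrous iron.

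Lists of genes that respond to signals known to act on metallothioneins were counted in the same comparison. All 14 glucocorticoid-induced genes rose, where 12.8% of all tested genes were called higher, and their median log2 fold change was 1.95 against -0.01 over all tested genes. *Fkbp5*, a chaperone gene used as a readout of the receptor, rose 35.9-fold. *Zbtb16*, a zinc finger repressor gene, rose 13.6-fold, *Tsc22d3*, which encodes the leucine zipper protein GILZ, 9.93-fold, and *Pdk4*, a pyruvate dehydrogenase kinase gene, by 3.09 on the log2 scale. *Errfi1*, the most abundant of the list, rose by 2.56 on the log2 scale. Of 11 Nrf2 target genes, which respond to oxidants and electrophiles, 8 rose and none fell, with a median of 0.92, led by *Gclc* and followed by *G6pdx* (1.07), *Osgin1* (0.98) and *Gsr* (0.95), while the most abundant, *Prdx1*, was not called. Of 12 IL-6 and STAT3 target genes, 6 rose and 1 fell, with a median of 0.74. Among those that rose, *Saa3* (5.09) and *Lcn2* (3.74) are acute-phase genes, and *Cebpb* (1.56) and *Osmr* (0.93) encode a transcription factor and a cytokine receptor. Other genes of this list did not rise. Under induction in NC and in KD-Nap1l2, *Il6st* was at -0.39 (not called) and -0.74 (called). *Socs3* was at 0.22 and -0.18 and *Bcl3* at -0.31 and -0.04, none of them called. The part of these signals in the change of the 6 genes was not tested.

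For each of the 6 genes the 3 genes with the most similar profile were taken from 11279 genes, by Pearson correlation of log2 library-scaled counts over the 8 libraries, which share the split into induced and uninduced cells. *Mt1* was closest to *Arrdc1* (r = 0.99), *Mt2* (0.983) and *Paics* (0.981), and *Mt2* to *Lpin3* (0.983), *Mt1* (0.983) and *Psmd10* (0.979). *Mtf1* was closest to *Patl1* (0.987), *Lrrc58* (0.985) and *Zfhx3* (0.983). *Slc39a10* was closest to *Zfand4* (0.993), *Col3a1* (0.993) and *Ppp1r12a* (0.99), and *Slc39a14* to *Prune2*, *Mfhas1* and *Spen* (each 0.988). For *Slc30a1* the highest values were lower, with *Frg2f1* (0.931), *Magoh* (0.924) and *Orc5* (0.905). Of the 6 genes, only *Mt1* and *Mt2* appeared among each other's closest genes.

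At the level of transcripts, 5 of the 6 genes were dominated by 1 form. The main *Mt1* transcript took 97.2% to 99.7% of the estimated counts of the gene in each library, the main *Slc30a1* transcript 99.4% to 100% and the main *Slc39a10* transcript 92.1% to 99%, and *Mt2* and *Mtf1* had a single transcript in the table. *Slc39a14* was spread over 8 transcripts, of which the main one took 62.6% to 86%. The estimated gene counts of *Mt1* and *Mt2*, which encode closely related proteins, were whole numbers in all 8 libraries, while those of *Mtf1* and *Slc39a14* held fractions in most libraries, as the counting program assigns to reads that match more than 1 place. Shares among such overlapping transcripts are estimates of the counting program and were not tested.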

How the data were processed

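Total RNA from C3H10T1/2 cells was sequenced in 8 libraries. For genes and transcripts, the authors deposited estimated counts that were not normalized, and FPKM values that they had scaled to gene length and library reads. The submitters' processing notes name BWA, Bowtie2, RSEM and GRCm38.p6, with no versions or parameters. Of 18605 genes, 7650 had a count that was not whole. Tables of the authors’ own fold changes and p-values between groups were deposited too and were not used. Libraries were grouped by their labels. Estimated counts were rounded, and genes were kept by the edgeR expression filter (13470 genes), scaled by TMM and tested with the edgeR 4.0.16 quasi-likelihood test in R 4.3.3 over all 8 libraries, with Benjamini-Hochberg adjustment over all tested genes. The scripts were tested on simulated data. Alternatives were DESeq2 1.42.0, RLE scaling, other filters, the compared libraries alone, a replicate block, limma 3.58.1 on log2(FPKM + 1) or log2(FPKM + 0.1), and leaving out each library. Fold changes from limma understate those of low genes.

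The 6 genes and all lists were chosen with earlier results of these data known. Named list genes were the called ones, at most the 4 largest changes in a list and comparison, plus the most abundant gene and some too low to be tested. Genes of similar profile needed a mean of at least 50 normalized counts. Replicate numbers did not pair the libraries. Promoter windows, gene positions and symbols are RefSeq entries on GRCm38.p6. Windows were found for 5 of the 6 genes, and *Slc39a14* had none. With 2 libraries a group, the precision of a group mean rests on the spread between those libraries and not on depth.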

Additional observations from a re-analysis of the deposited data

How the results depend on the processing

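For induction in NC, 3 of the 6 genes were called, against 1 with the replicate block and 1 with limma at either pseudocount, 1 when any library was left out, and 4, with *Mt2* added, under DESeq2 or with no filter on low counts. For induction in KD-Nap1l2 the count of 2 ranged from 1 to 4 over left-out libraries, for the average the count of 5 ranged from 3 to 5, and before induction the count of 0 between labels ranged from 0 to 2. The call of *Slc30a3* was not made with at least 10 counts in every library (0 exporters), since it was then not tested. Left-out libraries turned the sign of values that were not called: before induction *Mt1* ranged from -0.95 to 1.29, *Mt2* from -0.64 to 1.95, *Mtf1* from -0.0193 to 0.36 and *Slc39a10* from -0.0541 to 0.39; after 7 days *Mt1* ranged from -0.18 to 0.39 and *Mtf1* from -0.0579 to 0.0542. *Slc30a1* in KD-Nap1l2 ranged from -0.22 to 0.56. In the difference between responses *Mt1* ranged from -1.15 to 1.09, *Mt2* from -1.43 to 1.16 and *Mtf1* from -0.36 to 0.0218. *Mtf1* after 7 days was also below 0 with no filter (-0.00378), with at least 10 counts (-0.00372) and with limma (-0.00248 and -0.00333).

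Replicate differences correlated at -0.136 to 0.124 between groups, so the numbers are not taken to pair libraries; the block changed the count of the 6 genes in NC alone. Over all genes, induction in NC called 1106, against 122 without NC replicate 1. Induction in KD-Nap1l2 called 1912, against 305 and 330 without either KD-Nap1l2-7day library. The label called 11 genes before induction, against 454 with DESeq2, 160 with no filter and 562 without KD-Nap1l2 replicate 1, and 0 after 7 days, against 82 with DESeq2. The difference between responses called 0 genes, against 100 with DESeq2 and 1 with no filter. The cause of these shifts was not tested. Every direction given for *Slc39a14* and *Slc39a10* under induction held in all alternatives run, and the wide intervals of the metallothioneins limit what 2 libraries a group can show.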
